A study of Homo sapiens with 6 samples.

Results

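The genes of glycolysis and the classical hypoxia-induced genes were followed after knockdown of TRAIP in bladder carcinoma cells. The set held 35 genes, chosen by symbol for their known roles. No measured value enters that rule, but earlier results of these data were known when the genes were chosen. All 35 were found among the 33542 genes of the count table. They comprised 19 enzymes of glycolysis and lactate formation, 4 glucose and lactate transporters, 11 genes induced by low oxygen, and HIF1A itself.

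RNA was sequenced from T24 cells, an established human urinary bladder carcinoma line, transfected with a control small interfering RNA (siNC) or with one against TRAIP (siTRAIP), an E3 ubiquitin ligase. Each group had 3 libraries. The culture medium and transfection reagent were shared by both groups; the sources used here do not give the siRNA sequences, their dose, the oxygen level or the time after transfection. The siTRAIP libraries carry the label of 1 siRNA, so an effect of the loss of TRAIP and an effect of that siRNA's own sequence cannot be told apart.

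Glycolysis splits glucose into pyruvate in the cytosol and yields ATP without oxygen; lactate dehydrogenase then reduces pyruvate to lactate, which monocarboxylate transporters carry out of the cell. HIF1A encodes the oxygen-sensitive alpha subunit of hypoxia-inducible factor. With oxygen present, prolyl hydroxylases mark that protein for VHL-directed degradation, and when oxygen is low it accumulates, pairs with ARNT, binds a short DNA core and raises transcription of most of the genes described here. MYC, named in the title of the study as a substrate of TRAIP, also binds and activates many glycolytic genes. Protein was not measured in these files.

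Library totals ranged from 39111793 to 70439496 counts. TRAIP mRNA was 26.5, 28.3 and 28.4 CPM (counts scaled to a common library size with TMM factors) in siNC and 12.5, 14.7 and 11.6 CPM in siTRAIP. Its groups did not overlap, and its log2 fold change was -1.11 (edgeR SE 0.07, adjusted p = 6.74e-10). MYC mRNA did not pass the threshold (log2 fold change -0.11, SE 0.05, edgeR adjusted p = 0.219). The labels do not say whether replicate libraries are separate cultures, and the p-values cover only the variation among the libraries sequenced. Replicate 3 of siTRAIP stood apart from replicates 1 and 2, with a chi-square per degree of freedom of 17.6 and 18.3 against them, while other pairs within a group gave 3.35 to 8.03. Of the markers of the bladder line, KRT7, KRT8, KRT18, VIM and CD44 were abundant, KRT5, GATA3 and UPK3A were near 0, and KRT7 fell by 0.18 (edgeR SE 0.04, adjusted p = 0.00375). The summed CPM of 4 fibroblast markers was 1.30 to 1.39 in siNC and 1.08 to 5.18 in siTRAIP, where replicate 3 held 4.26 CPM of COL1A1. PTPRC, CD14 and the endothelial markers were near 0. CD68, also on the leukocyte list, rose by 0.31 (edgeR SE 0.06, adjusted p = 9.17e-04), but it shares 85.8% of its exonic bases with other genes. The part of these markers in the results was not tested. In bulk RNA, fewer cells of a type and less RNA per cell cannot be told apart.

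HIF1A was the member that differed most, and it fell. Of the 33 members with enough counts to be tested, 4 fell (HIF1A, HK2, BNIP3 and SLC16A3), 1 rose (PFKL) and 28 did not pass the threshold of an edgeR adjusted p of 0.05. The called share was 15.2% of tested members, against 12.8% of all 18685 tested genes. Among all tested genes 7.47% rose and 5.34% fell. The groups of libraries did not overlap for 11 tested members, or 33.3%, against 29.1% of all tested genes. These shares lie near the background, so the set as a whole did not stand out by its number of calls.

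The members' log2 fold changes ran from -0.49 to 0.27 with a median of -0.01, and the median over all tested genes was -0.00. Their median size without sign was 0.09, against 0.12 over all tested genes. Fold changes above 0 numbered 15 and below 0 numbered 18. The 2393 genes called in the whole table divided into 1396 rises and 997 falls with TMM scaling. Scaling by total counts alone moved the median of all genes by -0.06 and gave 838 rises and 2050 falls, and limma on log2(RPKM + 0.1) gave 461 and 1059. The direction of a member with a small fold change therefore depends on the scaling.

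**Figure D1:**
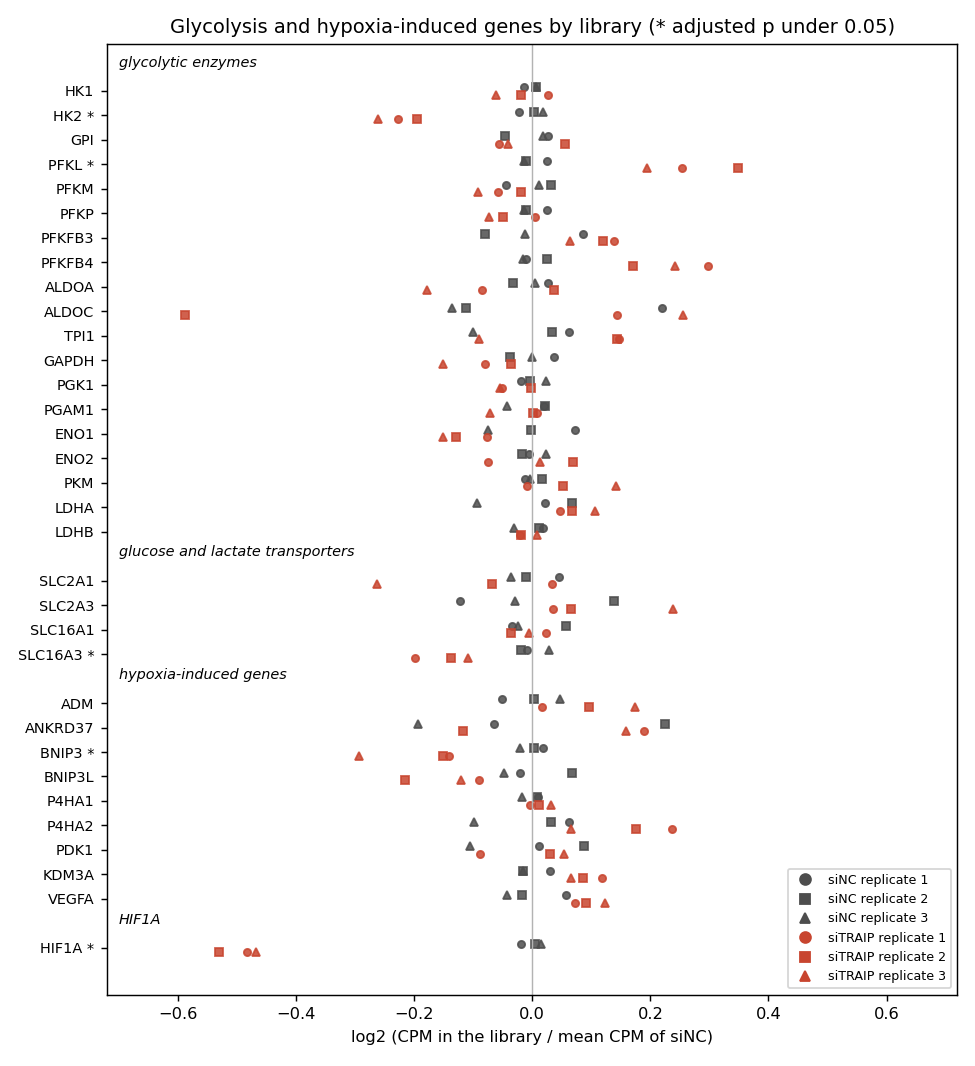
Each row is a tested member, grouped by role, and each symbol is 1 library placed by the log2 ratio of its CPM to the siNC mean (grey siNC, red siTRAIP; the 3 shapes are replicates 1 to 3). Asterisks mark the 5 members with an edgeR adjusted p under 0.05; the siTRAIP libraries of HIF1A lie together near -0.49, and most rows have overlapping groups.

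HIF1A (chromosome 14, 61695513 to 61748259, plus strand, GRCh38) stood at 168, 171 and 172 CPM in siNC replicates 1 to 3 and at 122, 118 and 123 CPM in siTRAIP replicates 1 to 3. Every siTRAIP library lay far below every siNC library, and the spread within each group was small. The means were 170.4 ± 2.05 and 121 ± 2.79 CPM (SD, n = 3 each), 0.71 of the control level. Its log2 fold change was -0.49 (edgeR SE 0.04, adjusted p = 1.13e-08), and it ranged from -0.55 to -0.48 over the 17 alternatives, passing the threshold in each. Per length of gene, HIF1A fell from 33.8 ± 0.517 to 23.0 ± 0.415 RPKM (SD, n = 3 each).

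HIF1A-AS1, a noncoding gene on the opposite strand (chromosome 14, 61681041 to 61695823, minus strand), overlaps the start of HIF1A. It was named after its values were seen. It read 7.55, 7.60 and 7.80 CPM in siNC and 5.42, 4.61 and 5.22 CPM in siTRAIP, with groups that did not overlap. Its log2 fold change was -0.59 (edgeR SE 0.10, adjusted p = 1.33e-04). The antisense gene shares 17.9% of its exonic bases with HIF1A, while 2.27% of HIF1A's exonic bases lie opposite another gene. Whether reads were counted by strand is not stated, so reads from the shared stretch cannot be assigned to one of the pair.

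**Figure D2:**
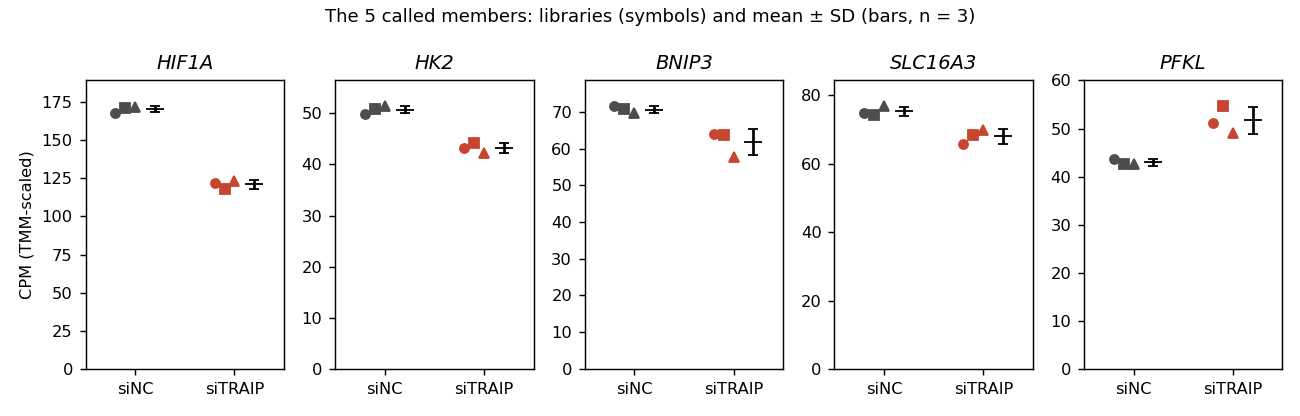
CPM of the 5 called members in each library (symbols; shapes are replicates 1 to 3), with the group mean and SD (bars, n = 3) beside them; every axis starts at 0. In each panel the siNC and siTRAIP libraries do not overlap; HIF1A, HK2, BNIP3 and SLC16A3 are lower in siTRAIP and PFKL is higher.

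Of the 19 enzymes, all tested, 1 rose and 1 fell, and their median log2 fold change was -0.01. That called share, 10.5%, was near the 12.8% of all tested genes. Hexokinases phosphorylate glucose in the first step of the pathway. HK2 (chromosome 2, 74833981 to 74893359, plus strand), the form most often induced in tumours, was 49.9, 50.8 and 51.3 CPM in siNC and 43.3, 44.3 and 42.3 CPM in siTRAIP. All siTRAIP libraries lay below all siNC libraries. The mean fell from 50.7 ± 0.725 to 43.3 ± 0.997 CPM (SD, n = 3 each), a log2 fold change of -0.23 (edgeR SE 0.05, adjusted p = 0.00153) that passed the threshold in all 17 alternatives. HK1, the widely expressed form, was 368, 374 and 374 CPM in siNC and 379, 367 and 356 CPM in siTRAIP. Its groups overlapped, and its log2 fold change was -0.02 (edgeR SE 0.04, adjusted p = 0.851).

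Because HK1 was the more abundant form per length, HK2 made up a small share of the pair's summed RPKM. That share was 11.9%, 12.0% and 12.1% in siNC and 10.3%, 10.8% and 10.6% in siTRAIP. Such a share is taken within a library and does not depend on the scaling between libraries. Its level does depend on gene length, which in RPKM counts all annotated exonic bases of a gene, so different genes are compared only roughly. The groups did not overlap. No p is given for shares, since an exact permutation test of 3 against 3 cannot go below 0.1.

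Phosphofructokinase makes the committed step of glycolysis, and its subunits are encoded by PFKL, PFKM and PFKP. PFKL (chromosome 21, 44300051 to 44327376, plus strand), the liver-type subunit, was 43.7, 42.6 and 42.5 CPM in siNC and 51.2, 54.7 and 49.1 CPM in siTRAIP. All siTRAIP libraries lay above all siNC libraries, and they were also more spread out. The mean rose from 42.9 ± 0.645 to 51.7 ± 2.80 CPM (SD, n = 3 each), a log2 fold change of 0.27 (edgeR SE 0.05, adjusted p = 6.68e-04). The call was lost in limma fits on RPKM, where the log2 fold change was 0.20 (adjusted p = 0.0726) with a pseudocount of 0.1 and 0.17 (adjusted p = 0.0738) with a pseudocount of 1.

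The muscle-type PFKM was 71.7, 75.6 and 74.5 CPM in siNC and 71.0, 73.0 and 69.4 CPM in siTRAIP. The platelet-type PFKP was 172, 168 and 168 CPM in siNC and 170, 164 and 161 CPM in siTRAIP. Groups overlapped for both, with log2 fold changes of -0.06 (edgeR SE 0.04, adjusted p = 0.481) and -0.04 (edgeR SE 0.04, adjusted p = 0.626). PFKP remained the main form: it made up 70.0% of the RPKM summed over the 3 subunits in siNC and 68.7% in siTRAIP. The PFKL share was 9.72%, 9.57% and 9.60% in siNC and 11.3%, 12.3% and 11.4% in siTRAIP, groups that did not overlap.

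PFKFB3 and PFKFB4 make fructose 2,6-bisphosphate, the strongest activator of phosphofructokinase. PFKFB4 was 3.28, 3.36 and 3.26 CPM in siNC and 4.05, 3.71 and 3.90 CPM in siTRAIP. Its groups did not overlap, but at these few reads its log2 fold change of 0.24 (edgeR SE 0.12, adjusted p = 0.211) did not pass. The more abundant PFKFB3 had a log2 fold change of 0.11 (edgeR SE 0.05, adjusted p = 0.182), with overlapping groups.

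ENO1, the enolase that makes phosphoenolpyruvate, was the most abundant member per length. It was 2970, 2822 and 2682 CPM in siNC and 2678, 2583 and 2542 CPM in siTRAIP. The siTRAIP libraries lay below the siNC libraries, but the highest of them came within a few CPM of the lowest control. Its log2 fold change of -0.12 (edgeR SE 0.04, adjusted p = 0.0782) did not pass. DESeq2 (adjusted p = 0.0457) and the edgeR fit with no filter on low counts (adjusted p = 0.0184) called it lower. So did edgeR with total-count scaling (adjusted p = 0.00384) and limma on log2(RPKM + 0.1) (adjusted p = 0.0498). ENO2, its neuronal paralog, was 19.7 to 20.3 CPM in siNC and 18.9 to 20.9 CPM in siTRAIP.

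The remaining enzymes had overlapping groups and did not pass. GPI, ALDOA, ALDOC, TPI1, GAPDH, PGK1, PGAM1, PKM, LDHA and LDHB had log2 fold changes between -0.09 (GAPDH) and 0.07 (LDHA). TPI1 was 606, 594 and 542 CPM in siNC and 643, 641 and 546 CPM in siTRAIP. Replicate 3 of siTRAIP lay near replicate 3 of siNC and apart from its own group; without it TPI1 was called higher (log2 fold change 0.14, edgeR adjusted p = 0.0115). GAPDH, much used as a reference transcript, was 1388, 1318 and 1353 CPM in siNC and 1280, 1319 and 1219 CPM in siTRAIP. Its log2 fold change was -0.09 (edgeR SE 0.04, adjusted p = 0.196), and only scaling by total counts called it lower (adjusted p = 0.0168). GAPDH has 62 annotated pseudogenes, BNIP3 39 and PGAM1 13, with which the counting could split their reads. Of the exonic bases of GAPDH, 14.2% lie opposite another gene.

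Lactate dehydrogenase is a tetramer of LDHA and LDHB subunits. LDHA was 697, 719 and 644 CPM in siNC and 709, 719 and 739 CPM in siTRAIP; LDHB was 770, 766 and 745 CPM and 749, 751 and 764 CPM. Neither passed the threshold. LDHA made up 30.3%, 31.1% and 29.3% of their summed RPKM in siNC and 31.2%, 31.5% and 31.7% in siTRAIP, so the groups did not overlap but lay close together.

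**Figure D3:**
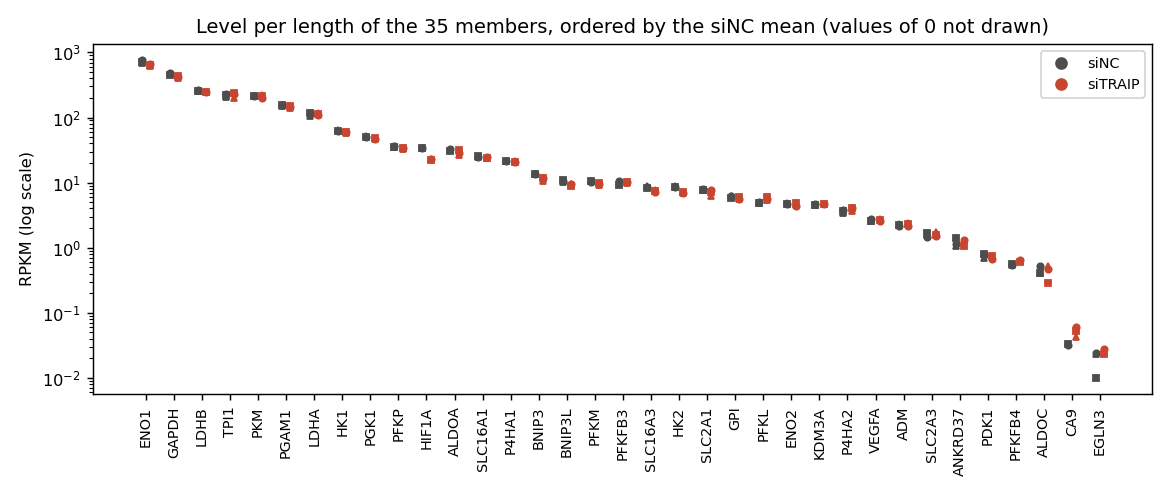
RPKM (log axis) of all 35 members in each library, in the order of the siNC mean; grey is siNC and red is siTRAIP, with shapes for replicates 1 to 3, and values of 0 are not drawn. ENO1 and GAPDH lead, CA9 and EGLN3 lie below 0.1 RPKM, and HIF1A is the called member whose groups lie farthest apart.

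Levels per length differed widely among the members. In siNC the mean was 729 ± 36.3 RPKM for ENO1, 464 ± 15.2 for GAPDH, 260.2 ± 3.77 for LDHB, 219.6 ± 12.0 for TPI1 and 212 ± 1.16 for PKM (SD, n = 3 each). In RPKM, LDHB and TPI1 differed by more than their spread, while TPI1 and PKM did not. This order depends on the annotated lengths, 8571 bases for PKM, 2983 for LDHB and 2700 for TPI1. Without division by length, the siNC means were 1779 CPM for PKM, 760 for LDHB and 581 for TPI1. The pathway's entry was carried by HK1 at 62.6 ± 0.668 RPKM, with HK2 at 8.54 ± 0.153. At the bottom of the expressed members stood PDK1 at 0.753, PFKFB4 at 0.552 and ALDOC at 0.449 RPKM.

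Glucose enters through SLC2A1 (GLUT1) and SLC2A3 (GLUT3), and lactate leaves through SLC16A1 (MCT1) and SLC16A3 (MCT4, the form known for lactate export from glycolytic cells). SLC16A3 (chromosome 17, 82228397 to 82261129, plus strand) was 74.9, 74.4 and 76.9 CPM in siNC and 65.7, 68.5 and 69.9 CPM in siTRAIP. Groups did not overlap, and its mean fell from 75.4 ± 1.31 to 68.0 ± 2.15 CPM (SD, n = 3 each). A log2 fold change of -0.15 passed the threshold (edgeR SE 0.04, adjusted p = 0.0291). The call was lost when any 1 library other than siTRAIP replicate 3 was left out, with adjusted p from 0.0627 to 0.131. CSNK1D on the opposite strand shares 5.36% of its exonic bases.

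SLC16A1 was 128, 137 and 129 CPM in siNC and 133, 128 and 131 CPM in siTRAIP, fully overlapping. SLC16A3 made up 25.6%, 24.3% and 26.0% of the RPKM summed over both lactate carriers in siNC and 22.5%, 24% and 24% in siTRAIP. These groups did not overlap, though the closest libraries were less than a percentage point apart. The level of the share rests on the lengths used, 8995 bases for SLC16A3 and 5312 for SLC16A1. Coding sequence plus 3′ UTR of 1 transcript of each held 2508 and 3542 bases, so which carrier was the more abundant transcript is not settled. Neither glucose carrier passed: log2 fold changes were -0.10 (edgeR SE 0.06, adjusted p = 0.351) for SLC2A1 and 0.12 (edgeR SE 0.09, adjusted p = 0.424) for SLC2A3.

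Of the 11 hypoxia-induced genes 9 were tested. Among them 1 fell (11.1% called, against 12.8% of all tested genes) and none rose, and 7 of the 9 had fold changes above 0. Of all 18685 tested genes, 9261 had fold changes above 0. P4HA1 and PDK1, counted among the 7, were below 0 with total-count scaling and in both limma fits on RPKM. BNIP3 (chromosome 10, 131966455 to 131982013, minus strand), a mitochondrial receptor for mitophagy, was 71.5, 70.8 and 69.6 CPM in siNC and 64.1, 63.6 and 57.6 CPM in siTRAIP. All siTRAIP libraries were lower, replicate 3 the lowest. The mean fell from 70.6 ± 0.973 to 61.8 ± 3.60 CPM (SD, n = 3 each), a log2 fold change of -0.20 (edgeR SE 0.05, adjusted p = 0.00767) that passed in all 17 alternatives. Without siTRAIP replicate 3 it was -0.15 (adjusted p = 0.0169).

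BNIP3L (NIX), its paralog in mitophagy, was 44.3, 47.1 and 43.5 CPM in siNC and 42.2, 38.7 and 41.4 CPM in siTRAIP. Groups did not overlap, and the log2 fold change of -0.14 (edgeR SE 0.05, adjusted p = 0.0738) did not pass. BNIP3L was called lower without siTRAIP replicate 3 (edgeR adjusted p = 0.0445), with total-count scaling and in both limma fits on RPKM. The BNIP3 share of the RPKM summed over both paralogs was 54.9% to 56.6% in siNC and 53.0% to 57.1% in siTRAIP, so the balance between them did not separate the groups.

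P4HA2, a prolyl hydroxylase of collagen, was 32.0, 31.3 and 28.6 CPM in siNC and 36.1, 34.6 and 32.1 CPM in siTRAIP. KDM3A, a histone demethylase, was 61.9, 59.9 and 59.9 CPM in siNC and 65.7, 64.3 and 63.4 CPM in siTRAIP. VEGFA, the angiogenic growth factor, was 38.2, 36.3 and 35.7 CPM in siNC and 38.6, 39.1 and 40.0 CPM in siTRAIP. Groups did not overlap for 55.6% of the tested hypoxia-induced genes, against 29.1% of all tested genes. That share includes BNIP3 and BNIP3L, which were lower. All siTRAIP libraries lay above all siNC libraries for P4HA2, KDM3A and VEGFA, by a narrow margin for P4HA2 and VEGFA. None passed: log2 fold changes were 0.16 (edgeR adjusted p = 0.0806), 0.09 (edgeR adjusted p = 0.216) and 0.10 (edgeR adjusted p = 0.234). P4HA2 was called higher without siTRAIP replicate 3 (log2 fold change 0.21, adjusted p = 0.0106).

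ADM, ANKRD37, P4HA1 and PDK1 had overlapping groups and log2 fold changes of 0.10, 0.09, 0.01 and 0.00. CA9, a carbonic anhydrase at the cell surface often used as a marker of tumour hypoxia, had 3, 3 and 0 counts in siNC and 4, 4 and 5 in siTRAIP. EGLN3, a prolyl hydroxylase that hypoxia induces, had 10, 4 and 10 counts in siNC and 8, 8 and 13 in siTRAIP. At so few counts neither was tested. Genes on the opposite strand share 38.5% of the exonic bases of CA9 and 35.2% of those of ANKRD37. The summed CPM of the 11 genes was 321 to 334 in siNC and 323 to 332 in siTRAIP, so the total overlapped.

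The other parts of the oxygen-sensing machinery, 14 tested genes, gave 3 rises and no fall, with a median log2 fold change of -0.03. Calls made up 21.4% of them, against 12.8% of all tested genes. ARNT, the partner of HIF1A, rose by 0.17 (edgeR SE 0.05, adjusted p = 0.0242), from 40.9, 40.2 and 42.1 CPM to 46.9, 44.3 and 47.0 CPM. EGLN2, one of the hydroxylases, rose by 0.19 (edgeR SE 0.05, adjusted p = 0.0104); it shares 27.2% of its exonic bases with other genes, the readthrough gene RAB4B-EGLN2 among them. SIAH2, a ubiquitin ligase for hydroxylases, rose by 0.28 (edgeR SE 0.09, adjusted p = 0.0445). All 3 calls were lost under some alternatives. EPAS1, the HIF2 alpha subunit, averaged 45.2 ± 0.243 CPM in the control and 44.7 ± 1.84 CPM after knockdown (SD, n = 3 each), with a log2 fold change of -0.02 (edgeR adjusted p = 0.885).

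Hypoxia-induced genes outside the set moved in both directions: of 33 tested, 6 rose and 3 fell, and the median log2 fold change was 0.03. Their called share was 27.3%, against 12.8% of all tested genes. NDRG1, a stress-responsive gene, was 19.1, 19.0 and 20.6 CPM in siNC and 30.6, 30.3 and 28.7 CPM in siTRAIP, and rose by 0.61 (edgeR SE 0.06, adjusted p = 1.27e-07). DDIT4 (REDD1), an inhibitor of mTORC1, rose by 0.59 (edgeR SE 0.06, adjusted p = 9.73e-08); 41.2% of its exonic bases lie opposite another gene. BHLHE40, a transcriptional repressor, rose by 0.37 (edgeR SE 0.06, adjusted p = 1.11e-04) and PPFIA4 by 0.70 (edgeR SE 0.13, adjusted p = 6.19e-04). The PPFIA4 call was lost with limma on RPKM, at 0.52 (adjusted p = 0.0743) with a pseudocount of 0.1 and 0.18 (adjusted p = 0.0543) with a pseudocount of 1. Each of these 4 rises was larger in log2 than any fold change above 0 within the set. They were picked from the 33 for their small adjusted p, so this does not compare the list with the set. PPFIA4 was also low, at a mean of 2.93 CPM in siNC and 4.79 CPM in siTRAIP.

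**Figure D4:**
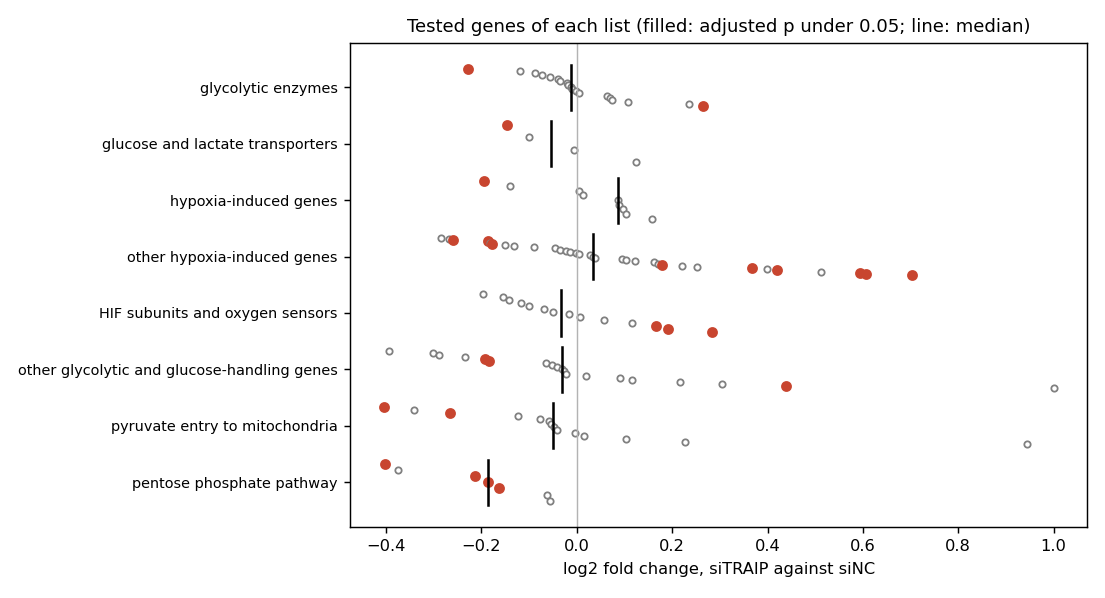
Each point is a tested gene, placed by its log2 fold change of siTRAIP against siNC; the rows are the 3 role groups of the set and 5 lists around them, filled points have an edgeR adjusted p under 0.05 and the vertical line is the list's median. The pentose phosphate row lies wholly below 0, and the other hypoxia-induced genes spread to 0.70 on the right.

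In the pathways that branch from glycolysis, the pentose phosphate pathway had the most calls for its size. Of 7 tested genes 4 fell (57.1%, against 5.34% of all tested genes that fell) and none rose. All 7 had fold changes below 0, with a median of -0.19. PGD, which makes NADPH, was 215, 216 and 209 CPM in siNC and 192, 187 and 173 CPM in siTRAIP, and fell by 0.21 on the log2 scale (edgeR SE 0.04, adjusted p = 0.00181). RPIA fell by 0.40 (edgeR SE 0.08, adjusted p = 0.00123) and TALDO1 by 0.16 (edgeR SE 0.04, adjusted p = 0.0131). PGD and RPIA passed in all 17 alternatives, and TALDO1 did not without siNC replicate 2 (adjusted p = 0.0701). TKT, of the nonoxidative arm, had a log2 fold change of -0.06 (edgeR SE 0.04, adjusted p = 0.369).

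The genes that admit pyruvate to mitochondria gave 2 falls and no rise among 14 tested. That is 14.3%, near the 12.8% called among all tested genes. PDP2, a phosphatase that activates pyruvate dehydrogenase, fell by 0.40 (edgeR SE 0.08, adjusted p = 6.69e-04). MPC1, a subunit of the mitochondrial pyruvate carrier, fell by 0.27 (edgeR SE 0.09, adjusted p = 0.0429). Of 19 tested genes in the list of other glycolytic and glucose-handling genes, 15.8% were called, also near the share of all tested genes. PCK2, the mitochondrial phosphoenolpyruvate carboxykinase, rose by 0.44 (edgeR SE 0.10, adjusted p = 0.00335). ENO3 fell by 0.18 (edgeR SE 0.05, adjusted p = 0.00805) and TIGAR, which lowers fructose 2,6-bisphosphate, by 0.19 (edgeR SE 0.05, adjusted p = 0.0202). Of these calls PCK2 was lost in both limma fits on RPKM (0.36 and 0.23, adjusted p = 0.0546 and 0.0567). ENO3 was lost without siNC replicate 1 (adjusted p = 0.0952). TIGAR was lost without siNC replicate 1, siNC replicate 2 or siTRAIP replicate 1 (adjusted p up to 0.109), and MPC1 with DESeq2, with the replicate block and without any 1 library other than siTRAIP replicate 1 (adjusted p up to 0.174).

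Short words in the transcripts were then read, because an earlier search of these same fold changes had found that genes holding ACAGTCT or CAGTCTA tended to be lower and genes holding TCGGAGA or CGGAGAA higher. The words were thus chosen on data that include the members, and their presence is a description. In coding sequence plus 3′ UTR, on the sense strand, ACAGTCT or CAGTCTA was found in 27% of 12594 tested genes searched, in 45.4% of all called falls and in 25.3% of all called rises. Among tested members it was found in 9 of 33 (27.3%). HIF1A, HK2 and BNIP3 held it and SLC16A3 did not; among the 28 members not called, 5 held it. Of genes with a like searched length, 29.6% held a word where HIF1A does, 41% for HK2 and 22.3% for BNIP3.
The 30-base stretches around the words in TRAIP and in the called members that hold them are shown, with the word in capitals.
TRAIP: gcaagttgcagACAGTCTActctgaattgg
HIF1A: attacctaaagCAGTCTAtttatattttct
HK2: ccttgagcactCAGTCTAgtgaagatgttg
BNIP3: aaaaacagctcACAGTCTgaggaagatgat
PFKL: gaccgcatcaaACAGTCTgcctcggggacc
PFKL: tgctgtggttgTCGGAGAAgctgcgcgagg

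The joined word ACAGTCTA of TRAIP lies in its coding sequence. It was found in 3.9% of genes searched and in none of the 33 tested members. The HIF1A word lies in the 3′ UTR (chr14:61747129-61747158, plus strand), as does that of HK2 (chr2:74893243-74893272, plus strand), 99 bases before the transcript's end. The BNIP3 word lies in coding sequence and its stretch spans an exon junction. PFKL, the member that rose, held words of both pairs in its coding sequence: ACAGTCT (chr21:44324497-44324526, plus strand), and the joined word TCGGAGAA, which holds both of the other pair (chr21:44326019-44326048, plus strand). TCGGAGA or CGGAGAA was found in 18.7% of genes searched, in 33.3% of all called rises and in 8 of 33 tested members (24.2%), of which none fell and 7 were not called. Sequences are from GENCODE v29 on GRCh38.

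Promoters were searched for the core that hypoxia-inducible factor binds, ACGTG or GCGTG, on both strands. A RefSeq promoter (GRCh38.p14, from 250 bases before to 50 bases after the gene's start) was matched for 31 of the 35 members. The entry nearest the start of the transcript searched above was taken, with no limit on distance. Its start lay 1212 bases away for SLC16A3, 1337 for GAPDH, 1658 for PGAM1 and 3417 for PFKM. ACGTG was found in 14 of the 31 (45.2%), against 26.4% of 10045 tested genes, and GCGTG in 16 (51.6%), against 51.3%. CACGTG, which holds ACGTG and is also the E-box that MYC and MAX bind, was found in 7 (22.6%), against 9.93%. Of the 10045 tested genes with a promoter entry, 691 fell and 977 rose. The 13 tested members with ACGTG had a median log2 fold change of -0.00, with 2 falls and no rise. The 16 without it had a median of -0.01, with 2 falls and 1 rise. Among those 16, 11 held GCGTG. Either form was found in 25 of the 31 (80.6%), against 63.2% of tested genes, and in each of the 5 called members.
The promoters of HK2 and BNIP3, which fell, and of LDHA, a classical HIF1 target that was not called, are shown 5′ to 3′ on the gene's strand. Capitals mark ACGTG or GCGTG on either strand, so that CACGT and CACGC are matches on the other strand.
HK2 (chr2:74833877-74834176, plus strand): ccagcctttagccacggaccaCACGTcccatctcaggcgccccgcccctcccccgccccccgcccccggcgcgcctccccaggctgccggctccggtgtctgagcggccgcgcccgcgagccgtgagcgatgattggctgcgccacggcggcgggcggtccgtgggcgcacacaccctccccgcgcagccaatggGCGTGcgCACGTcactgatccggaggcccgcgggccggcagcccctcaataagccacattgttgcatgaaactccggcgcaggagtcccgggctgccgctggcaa
BNIP3 (chr10:131981874-131982173, minus strand): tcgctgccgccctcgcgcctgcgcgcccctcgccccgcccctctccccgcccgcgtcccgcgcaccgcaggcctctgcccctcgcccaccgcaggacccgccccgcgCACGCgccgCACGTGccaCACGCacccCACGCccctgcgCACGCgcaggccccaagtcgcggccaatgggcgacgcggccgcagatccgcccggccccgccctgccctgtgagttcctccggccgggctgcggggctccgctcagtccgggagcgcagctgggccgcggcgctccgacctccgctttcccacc
LDHA (chr11:18394313-18394612, plus strand): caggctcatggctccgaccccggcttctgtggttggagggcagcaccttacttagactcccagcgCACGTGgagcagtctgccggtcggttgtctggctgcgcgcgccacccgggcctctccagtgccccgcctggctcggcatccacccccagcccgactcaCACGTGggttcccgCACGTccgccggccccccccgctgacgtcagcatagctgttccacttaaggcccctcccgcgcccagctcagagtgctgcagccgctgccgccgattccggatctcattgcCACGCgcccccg
The HK2 window holds ACGTG upstream and again near GCGTG, close to its start. BNIP3 has a single CACGTG among several GCGTG matches, and LDHA has CACGTG more than once.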

How the data were processed

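RNA was measured in 6 libraries, 3 per group; groups and replicate numbers came from the sample titles. The deposited counts are raw, whole numbers for each gene. Per the submitters' processing notes, GRCh38, featureCounts, Trimmomatic 0.36 and Subread 1.5.1 were used; aligner, annotation release and strand use in counting are not given in sources used here. Among counts of 1 to 10, 70.2% were even. The deposited RPKM values equal count over length and library total within a relative difference of 1.3e-06.

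Counts were tested with edgeR 4.0.16 (R 4.3.3): filterByExpr, TMM, robust quasi-likelihood fit and F-test (2-sided, siTRAIP minus siNC, no block), Benjamini-Hochberg over 18685 genes, threshold 0.05. The common biological coefficient of variation was 5.73%. The SE is the log2 fold change's size over the square root of F. Scripts were tested on simulated data. Words were searched in 1 GENCODE v29 transcript per gene (APPRIS principal, then longest). Alternatives were DESeq2 1.42.0, other scalings and filters, a replicate block, robust=FALSE, halved counts, limma 3.58.1 on log2(RPKM + 0.1) and log2(RPKM + 1), and each library left out.

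The members and lists were chosen with earlier results of these data known. All members are accounted for; members that were called, had groups that did not overlap or shared a reaction with a called member are given in full, and up to 4 called genes with the smallest adjusted p per other list are named. Of 166 list entries, 157 were found in the table, 2 of them (ELOB and ELOC) under older names. A few genes under this rule are not reported here.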

Additional observations from a re-analysis of the deposited data

How the results depend on the processing

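TRAIP, HIF1A, HK2 and BNIP3 stayed past the threshold in the same direction under all 17 alternatives. Of 85 values for the 5 called members under alternatives, 78 kept direction and call, 7 lost the call (PFKL in 2 limma fits, SLC16A3 in 5 fits without 1 library) and 0 changed sign. Members that rose numbered 0 with limma on log2(RPKM + 0.1), 0 with limma on log2(RPKM + 1), and 1 to 3 with 1 library left out. Members that fell numbered 7 with total-count scaling, where ENO1, GAPDH and BNIP3L joined, and 3 to 5 with 1 library left out. Genes changed numbered 1520 and 1519 in the limma fits (461 and 450 rose) and 1480 to 2622 with 1 library left out, of which 878 to 1471 rose and 602 to 1151 fell; total-count scaling gave 838 rises and 2050 falls. Limma on RPKM leaves out TMM scaling, as does total-count scaling. For counts over all genes, the low ends came without siNC replicate 1 and the high ends without siTRAIP replicate 3; without the latter TPI1 and P4HA2 joined PFKL.

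Uncalled members near 0 changed sign in 25 of 476 values, and 11 values in 5 members gained a call. With total-count scaling, limma with a pseudocount of 0.1 and limma with a pseudocount of 1, log2 fold changes were -0.055, -0.056 and -0.047 for ENO2, -0.046, -0.047 and -0.045 for P4HA1, and -0.055, -0.052 and -0.025 for PDK1. With halved counts ALDOC was 0.019. With 1 library left out, ranges were -0.040 to 0.0037 for HK1, -0.049 to 0.0069 for GPI, -0.20 to 0.21 for ALDOC, -0.044 to 0.0041 for PGAM1, -0.027 to 0.040 for ENO2, -0.026 to 0.019 for SLC16A1, -0.0051 to 0.21 for ANKRD37, -0.050 to 0.046 for PDK1 and -0.051 to 0.0016 for EPAS1. The cause of these changes of sign was not tested. Called genes outside the set lost their call in 41 of 289 values.

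With the replicate number as a block, 2145 genes changed and the same 5 members were called; SIAH2 (adjusted p = 0.059) and MPC1 (adjusted p = 0.0531) were not. Deviations of same-numbered libraries had correlations of -0.00757, -0.0177 and 0.00138, so over all genes they shared little variation. The labels do not say whether same-numbered libraries were prepared together. With 3 libraries per group, depth and spread limit calls on small changes, above all for PFKFB4, ALDOC, ANKRD37, CA9 and EGLN3.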

Other observations

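Among hypoxia-induced genes outside the set, further called genes were named after their values were seen. PPP1R3C, which targets a phosphatase to glycogen, rose by 0.42 (edgeR SE 0.11, adjusted p = 0.016). HMOX1, heme oxygenase, was 45.9, 47.5 and 46.2 CPM in siNC and 37.4, 41.8 and 37.5 CPM in siTRAIP, and fell by 0.26 (edgeR SE 0.05, adjusted p = 0.00128). STC2, a secreted glycoprotein, fell by 0.19 (edgeR SE 0.04, adjusted p = 0.00355), and JMJD6 by 0.18 (edgeR SE 0.04, adjusted p = 0.00645). The groups of libraries did not overlap for any of these 4 genes, which were picked because they were called. Groups did not overlap for 39.4% of the tested genes of this list and for 29.1% of all tested genes. Of the oxygen sensors that were not called, EGLN1, the main hydroxylase of HIF1A, had a log2 fold change of 0.01 (edgeR SE 0.05, adjusted p = 0.965), VHL one of 0.12 (edgeR SE 0.05, adjusted p = 0.194) and HIF1AN one of -0.07 (edgeR SE 0.04, adjusted p = 0.329).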
